A study of Mus musculus with 20 samples.

Results

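*Dio1* and 6 genes of thyroid hormone transport, sensing and response were read in the livers of mice that carry the *IMP2-2* transgene (tg) and of wildtype mice (wt). The genes are *Dio1*, the receptors *Thra* and *Thrb*, the response genes *Thrsp* and *Me1*, and the serum carriers *Ttr* and *Serpina7*. Every probe set annotated to 1 of them was taken, which gave 15 of 45101 probe sets and 7 of 18194 genes. The set was chosen by the fall of *Dio1* in tg livers, so that the *Dio1* difference is described here without a test, and the question was whether other genes of the hormone's pathway moved with it. *IMP2-2*, also called p62, is a splice variant of the RNA-binding protein IGF2BP2. It was expressed in the liver only, in mice of C57Bl6J/DBA2 background that were 5 weeks old and untreated, with 10 tg and 10 wt livers on 1 Affymetrix mouse genome array each. The array measures messenger RNA in whole liver, so fewer cells of a type and less RNA per cell cannot be told apart, and neither hormone levels nor enzyme activity were part of these files.

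The liver takes up thyroxine (T4), the main product of the thyroid gland, and the deiodinase encoded by *Dio1* removes iodine from it, either to form the active hormone T3 or to clear inactive forms. T3 enters the nucleus and binds the receptors encoded by *Thra* and *Thrb*, of which *Thrb* is the main form in hepatocytes. The receptors sit on DNA as partners of retinoid X receptors and raise or lower the transcription of metabolic genes. *Dio1* itself is among the genes that T3 raises in liver, and so are *Thrsp* and *Me1*, which serve fatty acid synthesis.

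The receptor pair reads short DNA half-sites, of which AGGTCA and GGGTCA were looked for on both strands in the 250 bases before the start of each gene. The windows come from RefSeq on GRCm38.p6, and 5 of the 7 genes were matched in it, leaving out *Thra* and *Ttr*. Printed here are the windows of the deiodinase and of both response genes, 5′ to 3′ on the gene's strand with half-sites in capitals. All 3 genes lie on the minus strand, *Dio1* with its window at chr4:107307169-107307418, *Me1* at chr9:86695915-86696164 and *Thrsp* at chr7:97417551-97417800.
Dio1: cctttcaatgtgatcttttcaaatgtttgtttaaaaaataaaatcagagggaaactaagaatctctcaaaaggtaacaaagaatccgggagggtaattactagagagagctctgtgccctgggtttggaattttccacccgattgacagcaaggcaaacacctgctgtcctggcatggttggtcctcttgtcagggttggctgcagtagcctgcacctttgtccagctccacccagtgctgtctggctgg
Me1: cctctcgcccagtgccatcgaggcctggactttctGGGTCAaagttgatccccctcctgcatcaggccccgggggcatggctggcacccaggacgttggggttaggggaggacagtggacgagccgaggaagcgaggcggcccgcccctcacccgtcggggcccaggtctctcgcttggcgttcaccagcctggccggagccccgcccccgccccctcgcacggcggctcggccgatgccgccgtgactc
Thrsp: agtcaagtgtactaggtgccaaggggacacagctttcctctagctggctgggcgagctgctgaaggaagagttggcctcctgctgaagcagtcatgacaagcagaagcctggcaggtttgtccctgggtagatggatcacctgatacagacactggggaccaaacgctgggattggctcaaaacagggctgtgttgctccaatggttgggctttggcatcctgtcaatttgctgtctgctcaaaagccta
The *Me1* window printed held 1 GGGTCA, at position -215 relative to the start, a further *Me1* window at another start held neither sequence, and those of *Dio1* and *Thrsp* held neither sequence. One of the *Thrb* windows held AGGTCA at position -184, and the *Serpina7* windows held none. Either half-site occurred in 23.8% of the 32851 mouse windows of this length, AGGTCA in 14% and GGGTCA in 11.6%, so a match in 1 window is a description of these letters and no evidence of binding.

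Several arrays need naming before the values. The arrays wt_1407_2 and wt_1420_6 differed from each other by an SD of only 0.168 log2 units over all probe sets, and wt_1407_5 and wt_1420_7 by 0.172, against 0.228 to 0.401 for the other wt pairs. Each of these pairs was counted as 1 sample in means and SDs, which leaves 8 wt profiles, while the fit across all probe sets kept all 20 arrays. The arrays tg_1386_9 and wt_1386_4, which carry different genotypes in their names, were closer still (0.155) and were kept under their labels. Of the tg arrays, 3 differed from the rest (tg_1423_2-8_1, tg_1423_2-8_4 and tg_1420_4): *Prom1*, a membrane protein of progenitor cells, read 9.85 to 10.21 on them and at most 7.51 on any other tg array. Values without these 3 arrays are given beside results that they bear on. All 20 arrays carried the Y-linked transcript *Eif2s3y* at 8.92 to 9.57, and *Xist* read 3.51 to 4.74. The hepatocyte markers set the profile, with a summed level of 15.81 to 15.93 on tg and 15.76 to 15.88 on wt arrays. Of these 5 markers 0 passed the threshold. Thyroglobulin (*Tg*), made by the thyroid gland alone, averaged 3.34 on tg arrays. Of the other thyroid gland markers, *Pax8* averaged 2.80, *Tshr* 4.59 and *Slc5a5* 5.94 on tg arrays. *Tshr* and *Slc5a5* were above the median of all probe set means (4.53), and *Tg* and *Pax8* were below it. Over all genes, limma called 176 of 18194 lower (0.967%) and 542 higher (2.98%) in tg livers at an adjusted p below 0.05, and the median log2 fold change was -0.02.

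*Dio1* fell to 59.1% of its wt level on average. On tg arrays its log2 signal ran from 8.65 through a median of 9.58 to 10.20, and on wt arrays from 9.86 through 10.28 to 10.65. The means were 9.54 ± 0.53 (SD, n = 10) in tg and 10.27 ± 0.28 (SD, n = 8 profiles) in wt livers, with a log2 fold change of -0.76 (SE 0.17). All 10 tg arrays lay below the wt median and 6 lay below the lowest wt array, so the groups overlapped only from 9.86 to 10.20. The lowest wt value (9.86) was that of wt_1386_4, next to 9.87 on its near-identical counterpart tg_1386_9. By log2 fold change *Dio1* was the 27th lowest of all genes, and this fall is how it came to be chosen.

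The spread of *Dio1* was uneven within the tg group. The lowest values were 8.65 on tg_1423_2-8_1, 8.93 on tg_1423_2-8_4 and 9.02 on tg_1420_4, the arrays with high *Prom1*, and the other 7 tg arrays ran from 9.40 to 10.20. Without these 3 arrays the log2 fold change was -0.47 (SE 0.13), a smaller fall in the same direction. Leaving out any single array gave -0.83 to -0.66.

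**Figure D1:**
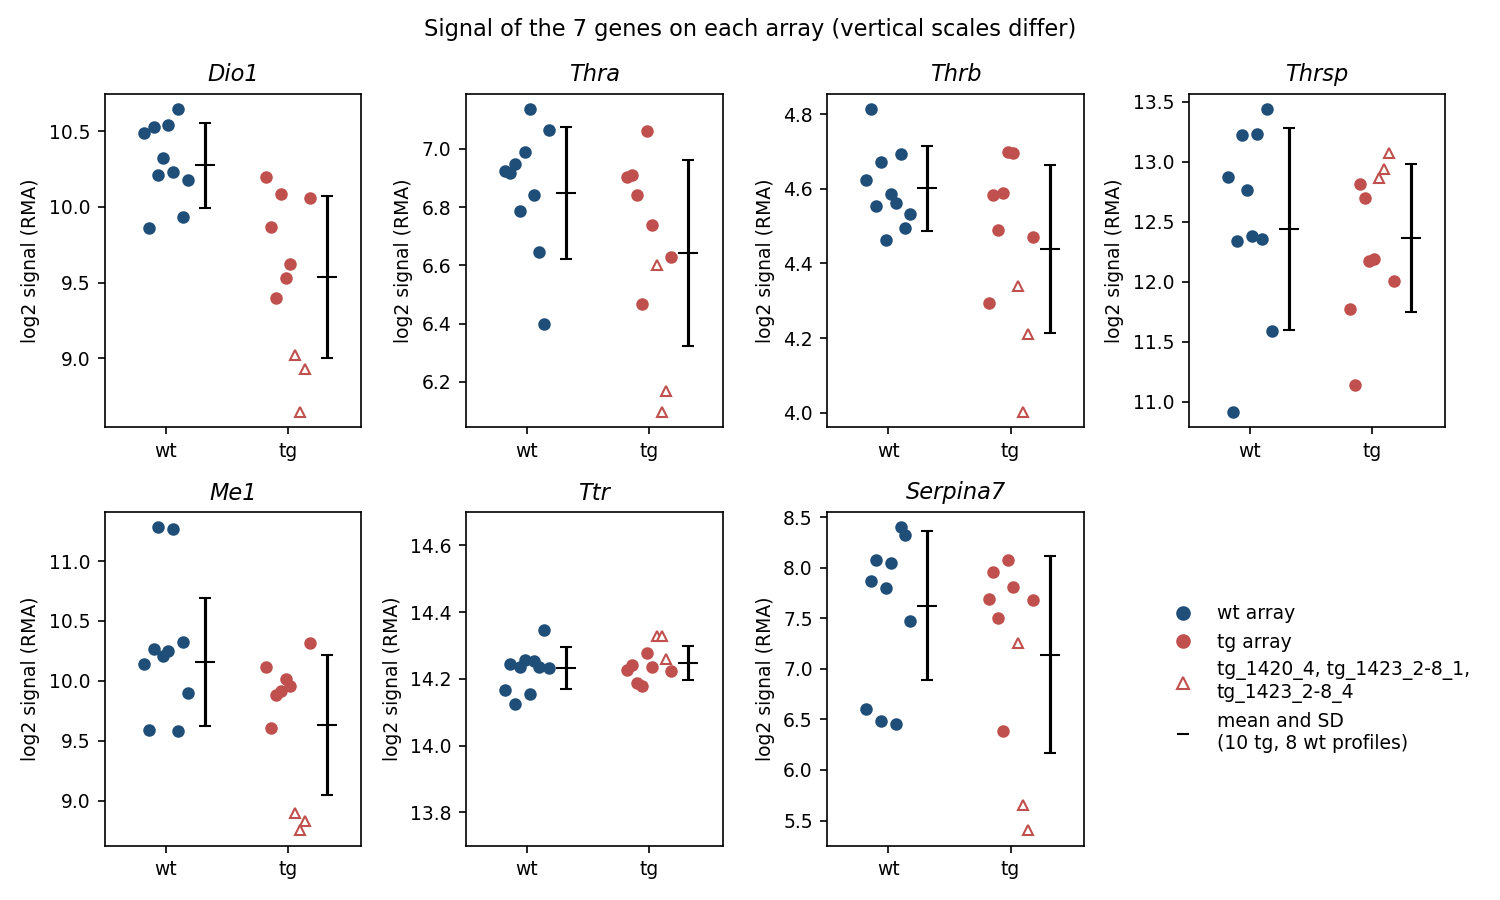
The log2 signal of the 7 genes, with 1 point per array for wt (blue) and tg (red), and the mean and SD beside each group (8 wt profiles, 10 tg arrays). Open triangles mark tg_1420_4, tg_1423_2-8_1 and tg_1423_2-8_4, which hold the lowest *Dio1* (8.65 to 9.02) and *Me1* (8.75 to 8.90) values, while *Ttr* stays between 14.13 and 14.35 on all arrays.

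The other deiodinase measured was *Dio2*, which forms T3 from T4 mainly outside the liver. Its brightest probe set averaged 4.17 ± 0.20 (SD, n = 10) in tg and 4.22 ± 0.08 (SD, n = 8) in wt livers, below the median of all probe set means (4.53). Its log2 fold change was -0.06 (SE 0.08), with an adjusted p of 0.713 in limma. *Dio3*, the inactivating deiodinase, had no probe set of its own.

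None of the 6 other genes passed the threshold, in either direction. Over all genes 0.967% were called lower and 2.98% higher, so 0 of 6 does not set these genes apart from others. *Thra*, the receptor that prevails in heart and brain, had 3 probe sets. The brightest ran from 6.10 through 6.68 to 7.06 in tg and from 6.40 through 6.92 to 7.14 in wt livers. The groups overlapped, with 2 of 10 tg arrays below the lowest wt array. The log2 fold change was -0.22 (SE 0.11, adjusted p 0.276 in limma), with a 95% interval of -0.46 to 0.01, and an exact permutation test over all 43758 divisions of 18 profiles gave a two-sided p of 0.144. The other probe sets read -0.22 (adjusted p 0.247 in limma) and -0.06 (adjusted p 0.674 in limma).

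*Thrb* read 4.002 through 4.48 to 4.70 in tg and 4.46 through 4.57 to 4.81 in wt livers, near the median of all probe set means. The 3 arrays with high *Prom1* were at 4.34, 4.002 and 4.21 and tg_1371_2 was at 4.29, and these 4 were the tg arrays below the lowest wt array. The log2 fold change was -0.16 (SE 0.08, adjusted p 0.237 in limma) and the exact permutation p was 0.0799. Without the 3 arrays it was -0.05 (adjusted p 0.802 in limma), and that of *Thra* was -0.07 (adjusted p 0.832 in limma).

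*Me1*, the cytosolic malic enzyme that supplies NADPH for fatty acid synthesis, had the largest fold change of the 6. It ran from 8.75 through 9.90 to 10.31 in tg and from 9.58 through 10.23 to 11.28 in wt livers. The low end of the tg group was again held by tg_1423_2-8_1 (8.75), tg_1423_2-8_4 (8.83) and tg_1420_4 (8.90), and no other tg array was below the lowest wt array. At the high end of the wt group, wt_1407_5 and wt_1420_7 read 11.28 and 11.27, but they are a near-identical pair and the highest of the other wt arrays was at 10.32. The means were 9.63 ± 0.58 (SD, n = 10) and 10.16 ± 0.54 (SD, n = 8). limma gave a log2 fold change of -0.65 (SE 0.24, 95% interval -1.15 to -0.15) with an unadjusted p of 0.0133 and an adjusted p of 0.133, and -0.46 with an adjusted p of 0.240 for the other probe set. With the pair counted once, the means differed by -0.53 and the exact permutation test gave a two-sided p of 0.0675. Without the 3 low tg arrays the log2 fold change was -0.31 (adjusted p 0.628 in limma).

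*Thrsp*, or Spot 14, a nuclear protein of lipogenic tissues that responds to T3 and to carbohydrate feeding, showed no shift that exceeded its spread. Its brightest probe set ran from 11.14 through 12.44 to 13.08 in tg and from 10.92 through 12.57 to 13.44 in wt livers, and the tg range lay inside the wt range. The 3 tg arrays with the lowest *Dio1* had the highest *Thrsp* values of the tg group, at 12.94, 13.08 and 12.87. The lowest values of each genotype were those of the near-identical arrays tg_1386_9 (11.14) and wt_1386_4 (10.92). The log2 fold change was -0.14 (SE 0.29, adjusted p 0.816 in limma) with a 95% interval of -0.75 to 0.46. The other probe sets gave -0.38 (adjusted p 0.646 in limma) and -0.36 (adjusted p 0.235 in limma), and the exact permutation p of the brightest was 0.831. Its log2 fold change was -0.40 (adjusted p 0.677 in limma) when the 3 tg arrays with high *Prom1* were left out.

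The serum carriers, which hepatocytes secrete, also missed the threshold. *Ttr*, or transthyretin, lay between 14.18 and 14.33 in tg and between 14.13 and 14.35 in wt livers. All 4 of its probe sets had log2 fold changes from -0.01 to 0.02, and the brightest had an adjusted p of 0.746 in limma. The highest probe set mean on these arrays was 14.40, so the *Ttr* signal was near the upper end of the scale, and whether the array could still register a rise there was not tested. *Serpina7*, thyroxine-binding globulin, ran from 5.40 through 7.59 to 8.08 in tg and from 6.45 through 7.83 to 8.40 in wt livers. The tg arrays tg_1423_2-8_4 (5.40) and tg_1423_2-8_1 (5.65) were lowest, followed by tg_1407_9 (6.38), while tg_1420_4 was at 7.25. The wt group held low values too, at 6.45 and 6.48 for the pair wt_1420_7 and wt_1407_5 and 6.60 for wt_1371_4. The log2 fold change was -0.41 (SE 0.36, adjusted p 0.542 in limma), with a 95% interval of -1.16 to 0.33, and it was 0.03 without the 3 tg arrays with high *Prom1*.

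The wider thyroid hormone pathway was read from lists of genes grouped by role. Of 58 listed genes beside *Dio1*, 51 had a probe set of their own. Of these, 0 were higher and 0 were lower past the threshold in limma, against 2.98% and 0.967% of all genes. At an unadjusted p below 0.05 there were 5 higher and 10 lower of 51, where all genes had 12.97% higher and 12.25% lower, and the median log2 fold change was -0.03 beside -0.02 for all genes.

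The 20 genes that T3 raises in liver, *Me1* and *Thrsp* included, lay evenly on both sides, with 10 positive and 10 negative fold changes and a median of -0.0001. *Mlxipl*, which encodes the carbohydrate-sensing factor ChREBP, came closest to the threshold. It averaged 10.14 ± 0.44 (SD, n = 10) in tg and 10.61 ± 0.29 (SD, n = 8) in wt livers, with 4 of 10 tg arrays below the lowest wt array. Its log2 fold change was -0.51 (SE 0.15, adjusted p 0.0737 in limma). With the number in the sample names as a block its adjusted p was 0.0396 in limma, and without the 3 tg arrays with high *Prom1* its log2 fold change was -0.33 (adjusted p 0.409 in limma). With the near-identical wt pairs averaged it was -0.48 (adjusted p 0.151 in limma). *Acaca*, the first enzyme of fatty acid synthesis, read 0.35 (adjusted p 0.121 in limma), and *Ppargc1a*, a coactivator of mitochondrial genes, also read 0.35 (adjusted p 0.203 in limma). *Fgf21*, a hormone of the fasted liver that is named here after its values were seen, read -0.67 (adjusted p 0.203 in limma). It passed only without wt_14231_2, at -0.90 (adjusted p 0.0483 in limma). With the near-identical wt pairs averaged it read -0.44 (adjusted p 0.432 in limma). Without the 3 tg arrays with high *Prom1* it read -0.52 (adjusted p 0.593 in limma). The genes that T3 lowers, *Apoc3* (-0.14, adjusted p 0.130 in limma), *Cyp8b1* (-0.32, adjusted p 0.660 in limma) and *Srebf1* (-0.10, adjusted p 0.767 in limma), were all on the negative side without passing the threshold. They read -0.07, 0.24 and -0.23 when the 3 tg arrays with high *Prom1* were left out.

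Hormone entry, sensing and clearance were likewise without a call. Beside *Thra* and *Thrb* the receptor list held the retinoid X receptors, of which *Rxrg* read -0.15 (adjusted p 0.216 in limma) and *Rxrb* -0.10 (adjusted p 0.396 in limma). Of 9 coregulators, 8 were on the positive side, the smallest adjusted p being that of the corepressor subunit *Tbl1xr1* (0.13, adjusted p 0.179 in limma). Among 7 transport and binding genes, the amino acid carrier *Slc7a8* read 0.22 (adjusted p 0.0716 in limma), with means of 3.39 and 3.20 that lie below the median of all probe set means. *Slco1b2*, an organic anion carrier of the hepatocyte, read -0.28 (adjusted p 0.136 in limma). Of the sulfotransferases, which tag iodothyronines for clearance, *Sult1b1* read -0.37 (adjusted p 0.194 in limma), *Sult1a1* -0.32 (adjusted p 0.245 in limma) and *Sult1d1* 0.17 (adjusted p 0.609 in limma). Without the 3 tg arrays with high *Prom1* the log2 fold change was -0.06 for *Sult1b1*, -0.14 for *Sult1a1*, 0.06 for *Sult1d1*, -0.17 for *Slco1b2* and -0.03 for *Rxrb*. In that setting *Rxrg* was no smaller, at -0.16, while *Slc7a8* read 0.18 and *Tbl1xr1* 0.08. With the number in the sample names as a block, *Slc7a8* had an adjusted p of 0.0433 in limma, and 2 of the 51 genes then passed, *Slc7a8* upward and *Mlxipl* downward. With the near-identical wt pairs averaged, 0 of the 51 passed, and *Slc7a8* read 0.19 (adjusted p 0.145 in limma).

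*Dio1* is a selenoprotein, and 16 selenoproteins and factors of their synthesis were read as a further list. Of these 0 passed in either direction in limma, where 2.98% of all genes were called higher and 0.967% lower. At an unadjusted p below 0.05, 1 was higher and 2 were lower (12.97% and 12.25% of all genes). Of the 16 fold changes, 11 were negative (median -0.05). *Txnrd2*, the mitochondrial thioredoxin reductase, averaged 7.99 ± 0.20 (SD, n = 10) in tg and 8.25 ± 0.11 (SD, n = 8) in wt livers. Its log2 fold change was -0.26 (SE 0.07, adjusted p 0.0505 in limma), just outside the threshold, and its adjusted p was 0.0355 in limma with the number as a block. Both fits kept the near-identical wt arrays apart, and with these pairs averaged it read -0.25 (adjusted p 0.115 in limma). *Selenos*, a protein of the endoplasmic reticulum, read 0.27 (adjusted p 0.0750 in limma) and *Msrb1*, a methionine sulfoxide reductase, read -0.24 (adjusted p 0.0775 in limma). Without the 3 tg arrays with high *Prom1* all of these were smaller, at -0.17 for *Txnrd2* (adjusted p 0.318 in limma), 0.17 for *Selenos* and -0.12 for *Msrb1*. *Selenow*, a small selenoprotein of the thioredoxin-like kind, read -0.19 (adjusted p 0.259 in limma).

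**Figure D2:**
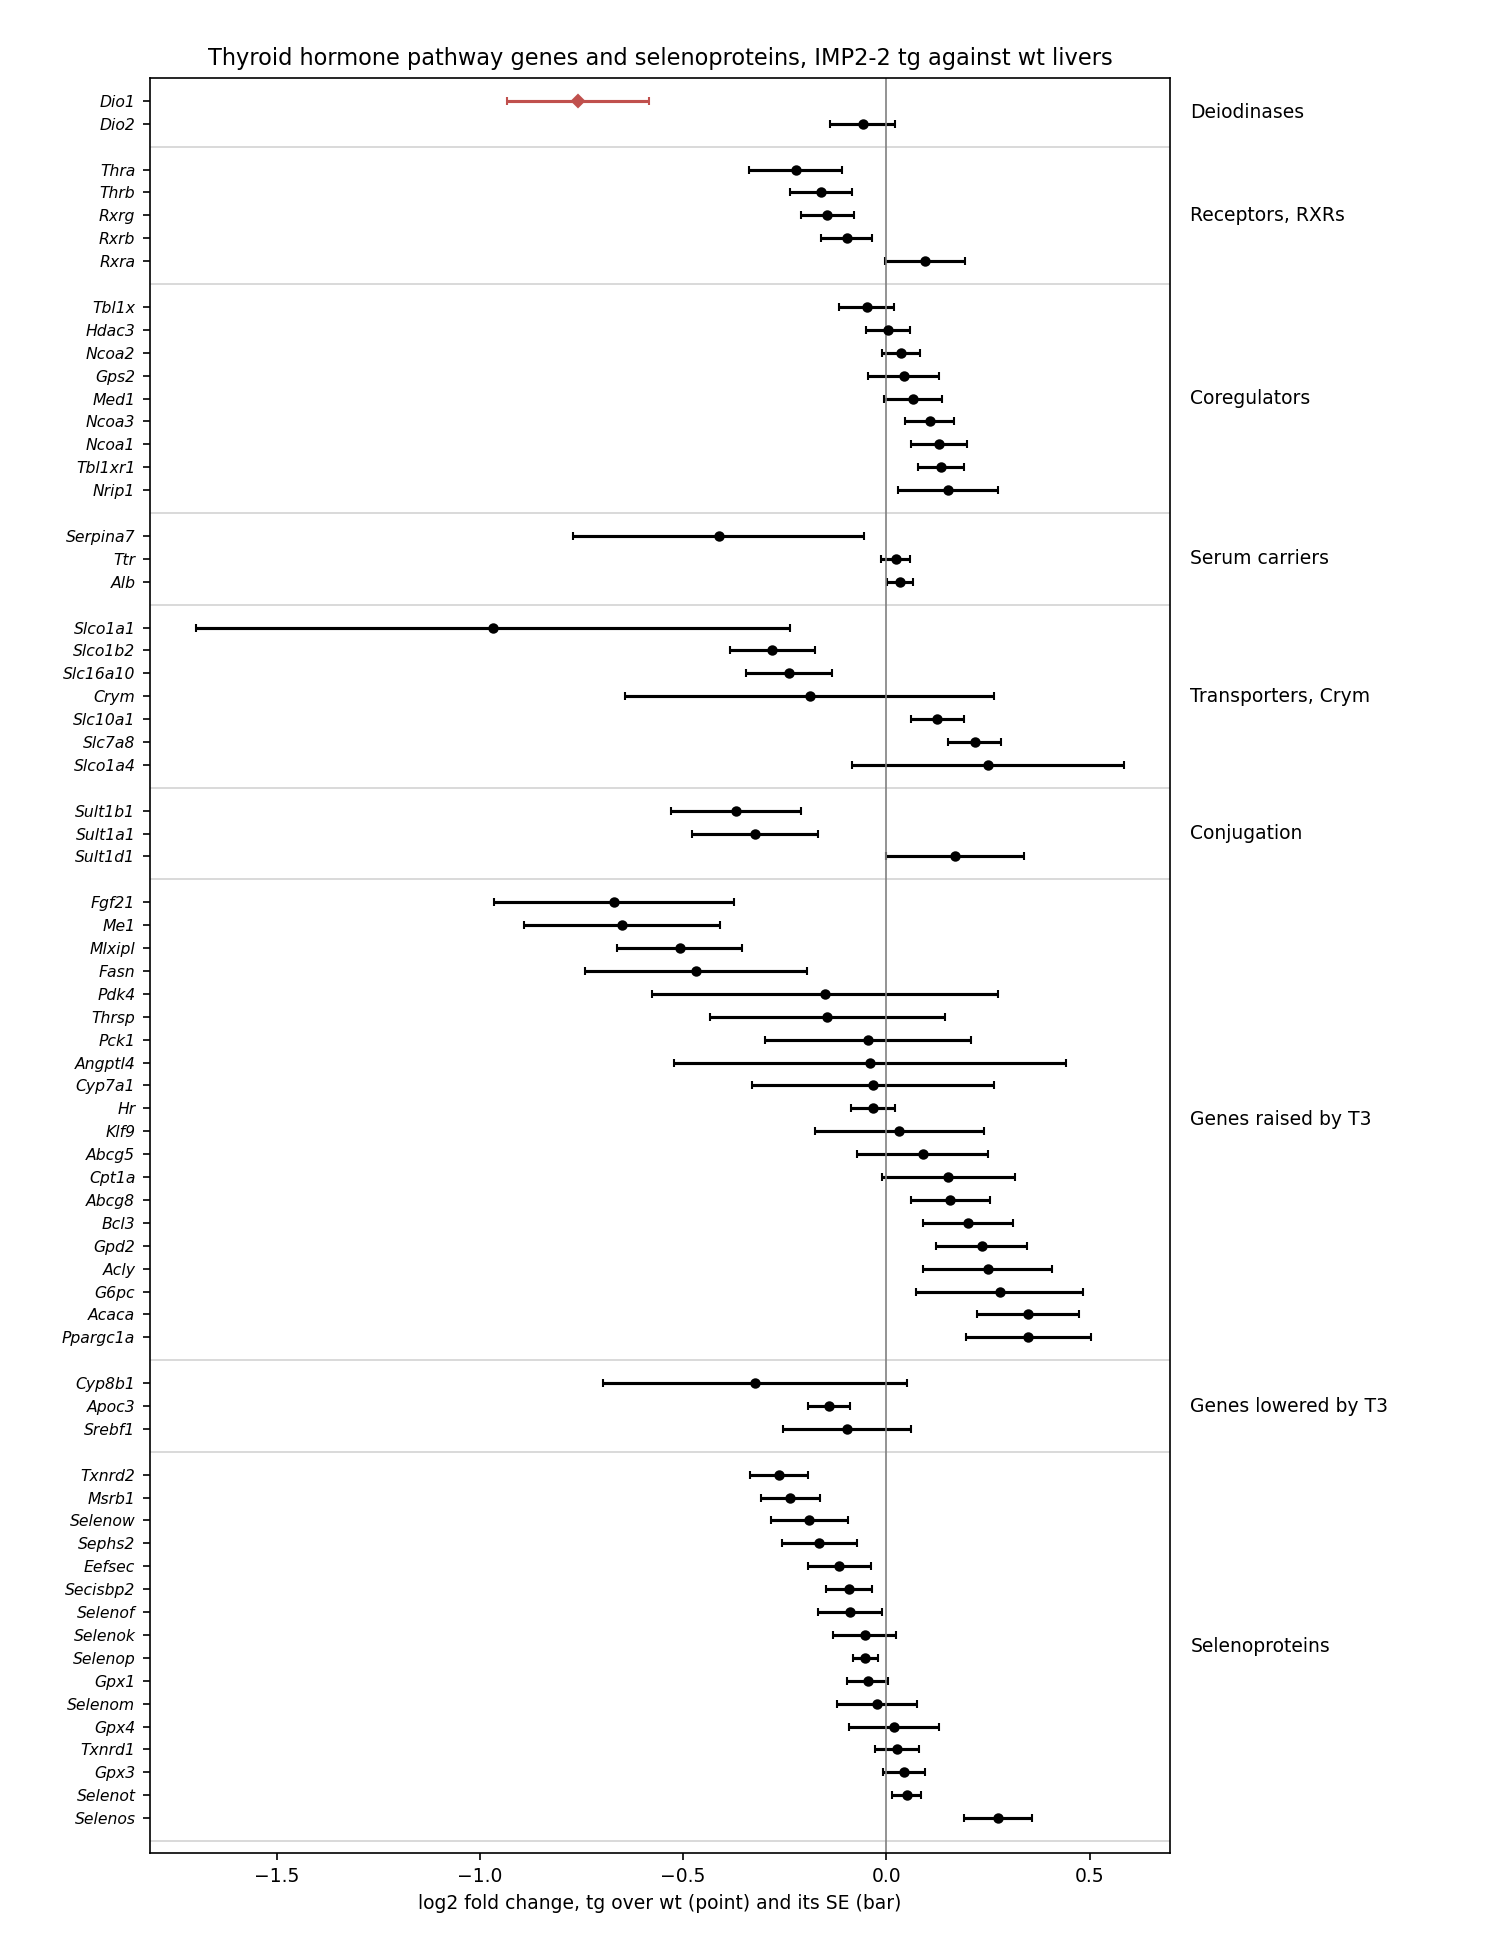
The log2 fold change (tg over wt, horizontal axis) of each measured gene of the thyroid hormone pathway lists and of the selenoprotein list, with bars for the SE of the limma fit. *Dio1* (red diamond, -0.76) was chosen for its fall, and of the genes raised by T3 10 lie on each side of 0.

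Among markers of other liver cells, calls were limited to macrophage and endothelial genes, with 0 calls among 4 stellate, 4 cholangiocyte and 4 lymphocyte markers in limma. Over all genes 2.98% were called higher and 0.967% lower, so 0 of 4 does not set a cell type apart. Of 5 macrophage markers, 3 were higher in tg livers in limma: *Cd68* by 0.68 (adjusted p 0.0144), *Clec4f*, which marks Kupffer cells, by 0.60 (adjusted p 0.00924) and *Marco* by 0.46 (adjusted p 0.0297). The summed level of the 5 markers ran from 10.88 to 11.34 on tg and from 10.49 to 11.14 on wt arrays. The endothelial marker *Lyve1* was higher by 0.995 (adjusted p 0.0214 in limma), and the other 3 endothelial markers missed the threshold. Without the 3 tg arrays with high *Prom1* none of these 4 genes passed in limma, nor did any without the tg_1423_2-8 and wt_1423_2-8 arrays. The fold changes in these 2 settings were 0.61 and 0.57 for *Cd68*, 0.56 and 0.52 for *Clec4f*, 0.35 and 0.43 for *Marco* and 0.82 and 0.89 for *Lyve1*. Their part in the fall of *Dio1* was not tested. Male-biased liver genes varied widely within both genotypes, and all 6 had negative log2 fold changes (median -0.86). In limma 0 of 6 passed at either p, where 12.97% of all genes were higher and 12.25% lower at an unadjusted p below 0.05. Of these genes *Slco1a1*, also listed as a transporter in the thyroid hormone pathway, read -0.97 (SE 0.73, adjusted p 0.475 in limma). It read 0.34 without the 3 tg arrays with high *Prom1*.

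Each array's name holds 1 of 6 numbers, and every number is found among tg as well as wt arrays. The difference between genotypes was therefore also read within each number, in 3 of which a genotype has a single array. *Dio1* was lower on tg arrays in 5 of 6 numbers. The difference was -1.50 between tg_1423_2-8 and wt_1423_2-8, -0.98 between tg_1420 and wt_1420 and -0.63 between tg_1407 and wt_1407, the numbers with more than 1 array per genotype. For the single pairs it was -0.29 (tg_1371_2 and wt_1371_4), -0.12 (tg_14231_6 and wt_14231_2) and 0.01 (tg_1386_9 and wt_1386_4). *Thra* was lower in 6 of 6 numbers (-0.43 to -0.01) and *Thrb* in 5 (-0.49 to 0.04). *Me1* was lower in 4 of 6, with differences of -1.16, -0.95 and -0.87 in the numbers with several arrays, in the same order, but -0.02, 0.42 and 0.02 in the single pairs. Both wt_1407 arrays are near-identical to wt_1420 arrays, so these 2 numbers share wt profiles and their differences are not independent, which for *Me1* includes the high pair wt_1407_5 and wt_1420_7. *Thrsp* was lower in 3 of 6 (-1.10 to 0.42), *Ttr* in 2 (-0.01 to 0.06) and *Serpina7* in 2 (-2.83 to 1.09).

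**Figure D3:**
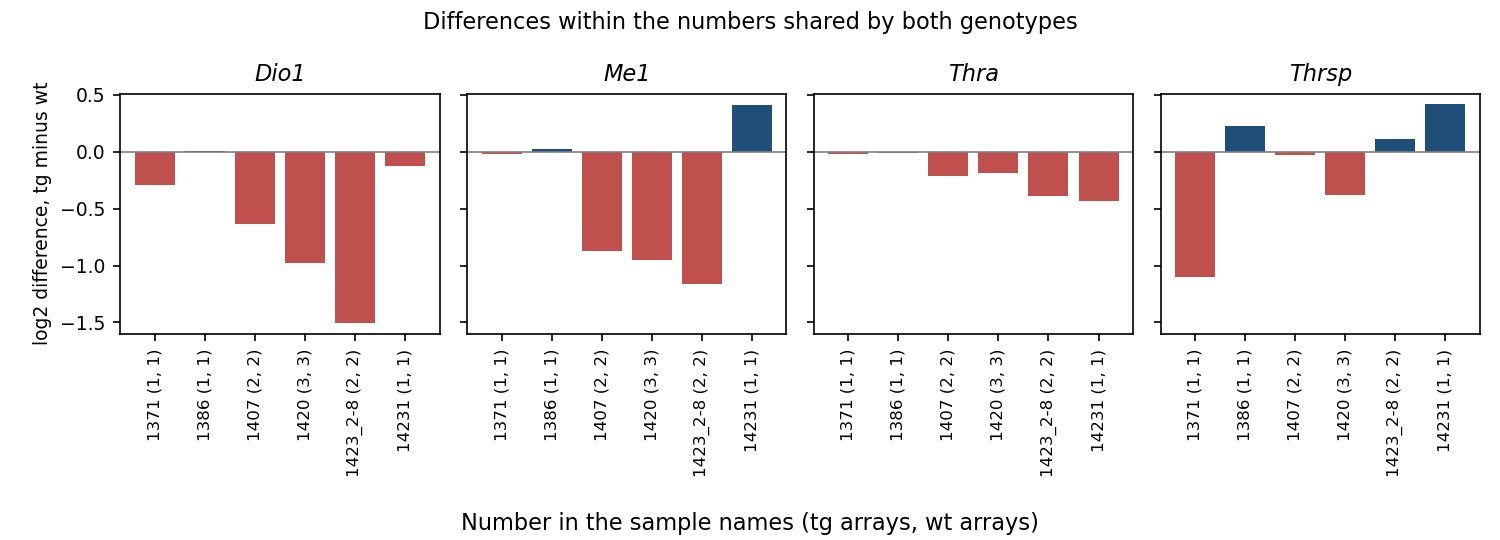
The difference in log2 signal, tg mean minus wt mean (vertical axis), within each number shared by both genotypes (horizontal axis, with the tg and wt arrays in brackets), for *Dio1*, *Me1*, *Thra* and *Thrsp*. *Dio1* and *Me1* show their largest falls between tg_1423_2-8 and wt_1423_2-8 (-1.50 and -1.16), whereas *Thrsp* lies on both sides of 0.

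Whether livers with little *Dio1* also had little of the other genes was then asked within each genotype, in 12 correlations with p values adjusted over the 12. Across the 10 tg arrays *Me1* followed *Dio1*, with a Pearson r of 0.88 (permutation p 0.00167, adjusted p 0.0200) and a Spearman rho of 0.79 (permutation p 0.00838, adjusted p 0.0503). The arrays tg_1420_4, tg_1423_2-8_1 and tg_1423_2-8_4 held the lowest values of both genes in the tg group. Leaving them out narrows the range of *Dio1* itself, so the lower r over the other tg arrays cannot show what the relation rests on. Without the 2 arrays farthest from the median of *Dio1* r was 0.73 (exact p 0.0336, adjusted p 0.201), and over the 7 other tg arrays it was 0.33 (exact p 0.487). Across the 8 wt profiles r was -0.04 (exact p 0.926, adjusted p 0.926). The permutations took the tg arrays as independent, although several share a number in their names, tg_1423_2-8_1 and tg_1423_2-8_4 among them. Over all 20 arrays, with genotype means removed, r of *Me1* with *Dio1* was 0.53. It was 0.38 with the number removed as well. These 2 values cover both genotypes, and the relation within tg arrays alone was not tested with the number removed. *Thrsp* ran the other way in the tg group, with r of -0.70 (permutation p 0.0246, adjusted p 0.0983) and rho of -0.81 (permutation p 0.00715, adjusted p 0.0503), neither of which passed after adjustment, and over the 7 other tg arrays r was -0.36 (exact p 0.434).

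*Ttr* was the only one of the 6 with r below -0.5 in both genotypes, at -0.73 in the tg group (permutation p 0.0184, adjusted p 0.0983) and -0.66 in the wt group (exact p 0.0663, adjusted p 0.118). Over the 7 other tg arrays its r was -0.19 (exact p 0.659). *Thra*, *Thrb* and *Serpina7* had r of 0.61, 0.60 and 0.60 across tg arrays (adjusted permutation p 0.118 each), and over the 7 other tg arrays these became -0.45, -0.57 and -0.37.

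The 5 genes with the highest and the 5 with the lowest correlation with *Dio1* were then read from all genes. The thyroid hormone lists held 51 measured genes, so that none of them is among so few says nothing about the pathway. After the mean of each genotype was removed, Pearson r with *Dio1* was taken over 18 profiles for 11774 genes above the median signal, as a description, since all genes share the arrays and their quality. The highest r were those of *Cyp4f13* (0.89), a cytochrome P450, *Jtb* (0.88), *B3galnt2* (0.88), a glycosyltransferase, *Rnpep* (0.88), an aminopeptidase, and *Abhd11* (0.87). The lowest were those of *Prom1* (-0.92), *Bex4* (-0.91), *Naip2* (-0.90), a sensor of bacterial proteins, *Stambpl1* (-0.89), a deubiquitinase, and *Lcn2* (-0.89), an iron-binding protein of the acute phase. *Prom1* averaged 7.40 ± 1.98 (SD, n = 10) in tg and 4.92 ± 1.07 (SD, n = 8) in wt livers, and its r was -0.94 within the tg group and -0.83 within the wt group. It was picked as the lowest r over these same profiles, so its values within each genotype are no separate evidence. In the wt group the highest *Prom1* values, 6.94 on wt_1423_2-8_9 and 6.04 on wt_1386_4, came with the lowest *Dio1* values, 9.93 and 9.86. Of these, wt_1386_4 is the array near-identical to tg_1386_9. Without the 3 tg arrays with high *Prom1* the r of the 5 highest was 0.60 to 0.73 and that of the 5 lowest was -0.79 to -0.68. On the same scale *Me1* stood at 0.61, rank 964 from the top, *Thra* at 0.52, *Thrb* at 0.48, *Serpina7* at 0.44, *Thrsp* at -0.33 and *Ttr* at -0.65. Without the 3 arrays *Me1* was at 0.05, *Thra* at -0.07, *Thrb* at -0.35, *Serpina7* at -0.18, *Thrsp* at 0.004 and *Ttr* at -0.48.

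**Figure D4:**
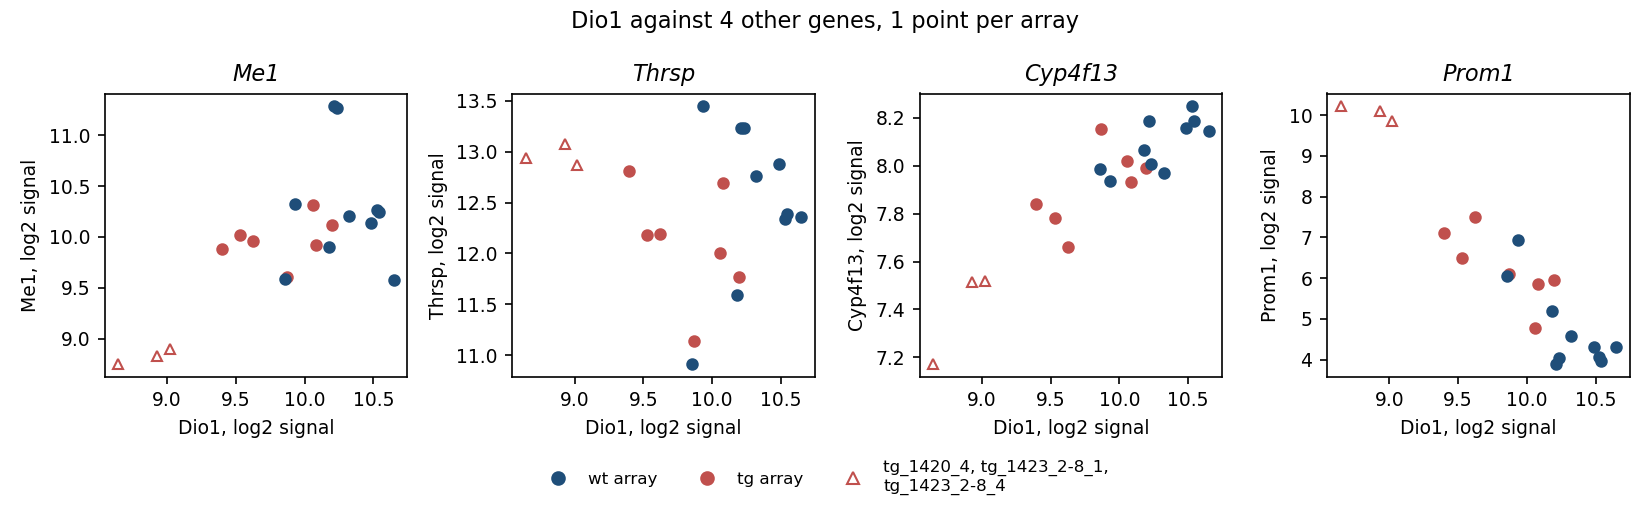
The log2 signal of *Me1*, *Thrsp*, *Cyp4f13* and *Prom1* (vertical axes) against that of *Dio1* (horizontal axes), with 1 point per array for wt (blue) and tg (red) and open triangles for the 3 tg arrays with high *Prom1*. *Me1* and *Dio1* are low together on these 3 arrays, whereas *Cyp4f13* rises and *Prom1* falls with *Dio1* in both genotypes (within-genotype r of 0.91 and 0.81 for *Cyp4f13*, -0.94 and -0.83 for *Prom1*). *Cyp4f13* and *Prom1* were picked for their r with *Dio1* over these same profiles.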

How the data were processed

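Liver RNA of 10 tg and 10 wt mice was hybridized to Affymetrix mouse genome arrays. The authors normalized the scans by RMA (version not given in the sources used here) and deposited log2 values for 45101 probe sets. RMA sets all arrays to one distribution, so a change shared by most genes cannot be seen. No raw scans were analysed here. Array medians ran from 4.46 to 4.55, 0 columns were left without a sample, and the number of arrays limits the precision.

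Gene names come from the array annotation (34958 probe sets with 1 symbol), and the 7 symbols were in RefSeq for GRCm38.p6. The probe set with the highest mean stands for a gene. limma 3.58.1 in R 4.3.3 fitted genotype to all 20 arrays, with Benjamini-Hochberg adjustment over all probe sets and a threshold of 0.05. Means and SDs count the near-identical wt pairs once. Exact permutation tests used 18 profiles, and correlations used 100000 permutations (10 tg arrays) or all pairings (8 wt profiles) in Python 3.11.15 with scipy 1.17.1. The fit was tested on simulated data.

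Named were the 7 genes, the listed genes past the threshold with up to 4 others of smallest p per list, and the 5 genes of highest and lowest r with *Dio1*. The genes and lists were chosen with earlier results of these data known, and *Fgf21* was added after its values were seen. The 142 listed genes included 123 with a probe set of their own.

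What the numbers in the sample names mark is not stated in the sources used here. After genotype means were removed, tg and wt arrays sharing a number correlated at 0.184 to 0.404, above 0.1 in all 6, and the own number was highest in 5 of 6. Number 1386 holds only the near-identical arrays tg_1386_9 and wt_1386_4, so its 0.382 cannot show what a number marks. Both wt_1407 arrays are near-identical to wt_1420 arrays, so the values of these numbers are not independent. Whether the animals came from separate litters is not stated, so p values measure the spread between these arrays. Alternatives were the number as a fixed or random block, averaged pairs, renewed quantile normalization, median centring, filters on signal and probe sets, *Xist* as a covariate, and leaving out arrays.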

Additional observations from a re-analysis of the deposited data

Results flagged for a closer look

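Over the 15 probe sets in each genotype, 30 groups, 3 had a highest or lowest value far from its neighbour for the range of the group, and chance gives about 1 in 20. A *Thra* probe set read 5.61 on wt_1423_2-8_3 and 6.04 on the next wt profile (gap over range 0.724). The brightest *Me1* probe set read 11.28 in the near-identical wt pair wt_1407_5 and wt_1420_7, and 10.32 on the next profile (0.562). A *Ttr* probe set read 13.698 on tg_1423_2-8_1 and 13.76 on the next tg array (0.535), a small step in absolute terms.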

How the results depend on the processing

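*Dio1* kept its direction in 13 alternatives (-0.84 to -0.47) and with each array left out (-0.83 to -0.66). Of the 6 other genes, 0 passed in any of these 33 fits, where the main fit called 0.967% of all genes lower and 2.98% higher. With the replicate block on the shared number, 1 gene raised by T3 passed (*Mlxipl*), 2 of the 51 pathway genes and 1 selenoprotein (*Txnrd2*), and the block changed no other call given for the pathway and selenoprotein lists. The random block (consensus correlation 0.0820), renewed quantile normalization, and leaving out tg_1386_9 with wt_1386_4 each gave 1 pathway gene (*Slc7a8*) and 1 selenoprotein. Filtering on the median and averaging probe sets each gave 1 selenoprotein. With the near-identical wt pairs averaged, 0 pathway genes and 0 selenoproteins passed. Leaving out single arrays gave 0 to 1 gene raised by T3, 0 to 1 pathway genes and 0 to 3 selenoproteins, the 3 (*Txnrd2*, *Selenos*, *Msrb1*) without tg_1386_9. *Mlxipl* passed without tg_1386_9 or tg_14231_6, and *Slc7a8* without tg_1407_9 or wt_1386_4. Selenoproteins also passed without tg_1371_2 (1), tg_1420_12 (1), tg_14231_6 (2) or wt_1420_1 (1). *Marco* missed the threshold with the wt pairs averaged (0.42, adjusted p 0.0744 in limma) and without any of 7 single arrays, with a fold change of 0.41 to 0.51 over all single arrays left out. Over 37 named genes and 1212 fits, 1166 kept direction and call, 24 gained and 16 lost a call, and 6 turned sign. Without the 3 tg arrays with high *Prom1* these were *Ttr* (-0.0004), *Serpina7* (0.0327), *Dio2* (0.0181), *Cyp8b1* (0.24) and *Slco1a1* (0.34), and without the tg_1423_2-8 and wt_1423_2-8 arrays *Serpina7* (0.19).

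Correlations with *Dio1* turned in tg without the 2 farthest arrays for *Thra* (-0.0561), *Thrb* (-0.0119) and *Serpina7* (-0.10), and over the 7 other tg arrays for the same genes (-0.45, -0.57 and -0.37). In wt they turned without the 2 farthest profiles for *Thrb* (0.47) and *Thrsp* (-0.30), and over all 10 arrays for *Serpina7* (0.0662). The 7 other tg arrays and the likeness alternatives were chosen after seeing the data. The causes were not tested. Counts over all genes ranged from 46 to 981 higher and 3 to 342 lower (542 and 176 in the report). They were 163 and 18 with the wt pairs averaged, 981 and 342 with the replicate block, 107 and 5 without the 3 tg arrays, and 46 and 3 without the tg_1423_2-8 and wt_1423_2-8 arrays. Single arrays left out gave 262 to 979 higher and 50 to 420 lower.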
